A study of Rattus norvegicus with 2 samples.

Results

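The respiratory chain is built from genes of 2 genomes, and its transcripts were described here in sympathetic neurons of the stellate ganglion. The paper states that some neurons of this ganglion innervate the heart and others do not. The genes were chosen by symbol and not by their values: those beginning with Nduf, Uqcr, Cox4 to Cox8, Atp5 or Mt-, together with Sdha, Sdhb, Sdhc, Sdhd, Cyc1 and Cycs. This gave 113 of the 25399 listed lines, of which 100 are nuclear and 13 are mitochondrially encoded. A library of each strain was made: 1 came from dissociated stellate ganglia of normotensive Wistar rats and the other from those of prehypertensive SHRs (spontaneously hypertensive rats), males of 5 to 6 weeks in both strains, and neither group carried a treatment or an engineered allele. The ganglia were digested with collagenase and trypsin before the cells were captured in droplets for scRNAseq of transcript 3′ ends, and how many animals were pooled is not given in the sources used here. Wistar is an outbred stock and SHR an inbred strain, so that genetic background cannot be told apart from blood pressure history, and with 1 library per strain neither can be told apart from the preparation of the library.

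Each value is the mean over the neurons that the authors grouped as sympathetic, as counts per 10000 counts of a cell. The paper describes a sympathetic population with neuropeptide Y and another without it. The share of each in these means is not given in the sources used here. A mean of 1 therefore stands for 1 count in 10000, and a value describes the share of a neuron's transcripts and not their absolute amount. The counts were not divided by transcript length, so comparisons are between the strains for the same gene or list. No spread between replicates exists and the number of neurons and their depth are unknown, so differences below have no error and no test. Changes are given as the percent change of the mean and as the difference of log2(1 + mean), SHR minus Wistar, where the added 1 makes the difference of a low gene smaller. A minimum average of 0.1 per 10000 over both libraries was used for counts and medians, and a difference of 0.25 on this log2 scale as a fixed size.

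Complex I oxidises NADH and complex II succinate, complex III passes the electrons to cytochrome c, and complex IV gives them to oxygen. Complexes I, III and IV pump protons across the inner mitochondrial membrane and complex V, the ATP synthase, lets them back to make ATP. The mitochondrial genome encodes the hydrophobic core of complexes I, III, IV and V, whereas every subunit of complex II and all remaining subunits are nuclear genes whose products are imported. Core subunits carry the redox centres, the proton path or the catalytic sites, and supernumerary subunits surround and stabilise them. Neurons rely heavily on this pathway to pay for ion pumping after action potentials.

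The neurons carried the markers of their label. All 11 sympathetic neuron markers passed the minimum in the average of both libraries, among them Th (tyrosine hydroxylase) at 10.2 per 10000 in Wistar neurons and 10.1 in SHR and Prph (peripherin) at 58.0 and 67.6. Of the 11, 4 were higher and 7 lower in SHR. Past the fixed size, Snap25 (0.42) and Phox2a (0.33) were higher and 3 genes of catecholamine synthesis and storage lower: Ddc at 7.05 and 3.44 (-0.86), Dbh at 10.2 and 6.36 (-0.61) and Slc18a2 at 5.36 and 3.63 (-0.46). Markers of other cells were mostly at low levels, and most but not all were lower in SHR. The 9 satellite glia and Schwann cell markers summed to 9.43 per 10000 in Wistar neurons and 3.47 in SHR, lower for 9 of 9. Most of this sum was Apoe, which was not low, at 6.24 in Wistar neurons and 2.23 in SHR (-1.16). The 6 fibroblast markers summed to 1.84 and 0.353, lower for 6 of 6. The 7 immune markers summed to 1.24 and 0.426, lower for 6 of 7, and the 5 endothelial markers with a line to 0.109 and 0.0358, lower for 5 of 5. The 6 smooth muscle and pericyte markers summed to 0.111 and 0.0711, lower for 4 of 6, and the 3 erythrocyte markers with a line to 0.0669 and 0.0499. The 8 muscle markers summed to 0.605 and 0.642, with Acta1 at 0.446 and 0.565, Tnnt2 at 0.155 and 0.0702, Ckm at 0.00367 and 0.00687, and Myh6, Myh7, Tnnt3, Actc1 and Mb listed at 0 in both libraries. The part of these cells in the differences described here was not tested.

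Respiratory chain transcripts made up 19.5% of all counts of a Wistar neuron and 21.6% of an SHR neuron. Most of this came from the 13 mitochondrially encoded genes, which took 16.9% in Wistar and 18% in SHR, against 2.64% and 3.61% for the 100 nuclear lines. The nuclear sum was therefore 36.9% higher in SHR and the mitochondrially encoded sum 6.84% higher. Of the 113 lines, 6 were listed at 0 in both libraries, 5 were above 0 but under the minimum and 102 passed it. Of these 102, 88 were higher in SHR, against 34.4% of all 7621 genes past the minimum, whose median log2 difference was -0.052, and 14 were lower, against 65.6%. By the fixed size, 50 of the 102 were higher, against 6.53% of all genes, and 3 were lower, against 11.8% of all genes. Without any minimum, 90 of the 107 lines above 0 were higher in SHR.

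The nuclear subunit genes, without assembly factors, inhibitor and other associated genes, had a median log2 difference of 0.29, with 70 of the 78 past the minimum higher in SHR and 44 of them past the fixed size. Most of these genes are well expressed, and well expressed genes as a whole were more often higher in SHR. Among the 1676 genes with an average of at least 1 per 10000, 54.5% were higher and 45.5% lower, 25.7% higher by the fixed size and 19% lower by it. Of the 68 nuclear subunits with such an average, 64 were higher and 4 lower, 43 higher by the fixed size and 1, Uqcrc2, lower by it. Their median was 0.32, and the 1594 genes of that level outside the respiratory chain had a median of 0.024, with 25% of them above 0.24 and the highest 5% above 0.50. Of the 68 subunits, 44 lay above 0.24 and 11 above 0.50.

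**Figure D1:**
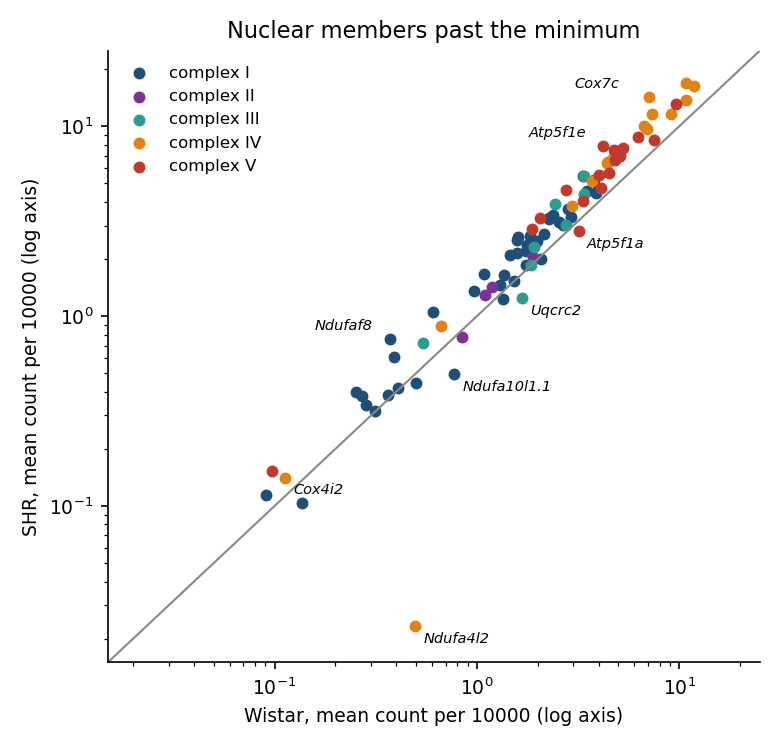
Mean count per 10000 of each nuclear respiratory chain line past the minimum in the Wistar library (x axis) and the SHR library (y axis), both on log axes, coloured by complex, with the line of equal levels. Points lie mostly above the line, most clearly for complexes IV and V, and Ndufa4l2 lies furthest below it, at 0.497 in Wistar and 0.0234 in SHR.

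Promoters of these genes show what several of the nuclear subunits share in sequence. Nuclear respiratory genes are known targets of NRF1, of the ETS family factor GABP and of YY1. Of the 78 nuclear subunits past the minimum, 63 had a promoter in the RefSeq table of assembly GRCr8, which holds 250 bases before and 50 after each gene start. The letters CGCANGCG, the centre of the NRF1 motif, were found on either strand in 33.3% of the 63, in 20.3% of 5610 promoters of genes past the minimum and in 8.61% of all 24206 promoters. The ETS letters CCGGAAG were found in 28.6%, 20.8% and 9.49%, and the YY1 letters AAGATGGC in 23.8%, 7.11% and 3.58%. The last 3 letters of the ETS motif are the first 3 of the YY1 motif, so that these 2 can overlap, and a match is a description of letters and not a binding site.

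The 5 promoter stretches below are shown because they carry these motifs, in capitals, in genes of different behaviour: 3 that were higher in SHR past the fixed size and 2 that were not. Each is the 150 bases before the gene start, 5′ to 3′ on the strand of the gene, from RefSeq (GRCr8).
Cox8a, chr1:213833624-213833773, minus strand: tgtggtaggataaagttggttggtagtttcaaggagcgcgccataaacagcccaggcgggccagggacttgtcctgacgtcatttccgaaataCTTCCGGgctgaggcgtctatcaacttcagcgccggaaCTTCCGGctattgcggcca
Atp5pf, chr11:37375102-37375251, minus strand: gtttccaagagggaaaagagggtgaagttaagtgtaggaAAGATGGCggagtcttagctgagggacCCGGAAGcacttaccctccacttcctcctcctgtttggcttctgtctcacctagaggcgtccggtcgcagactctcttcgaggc
Atp5mc2, chr7:135678219-135678368, minus strand: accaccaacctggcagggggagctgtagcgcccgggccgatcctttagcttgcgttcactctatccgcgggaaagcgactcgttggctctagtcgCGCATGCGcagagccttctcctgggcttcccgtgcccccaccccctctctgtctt
Sdha, chr1:30764403-30764552, plus strand: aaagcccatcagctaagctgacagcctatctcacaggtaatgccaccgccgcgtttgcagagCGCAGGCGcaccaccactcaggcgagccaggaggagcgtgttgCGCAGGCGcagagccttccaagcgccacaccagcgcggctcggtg
Uqcrc2, chr1:184599090-184599239, plus strand: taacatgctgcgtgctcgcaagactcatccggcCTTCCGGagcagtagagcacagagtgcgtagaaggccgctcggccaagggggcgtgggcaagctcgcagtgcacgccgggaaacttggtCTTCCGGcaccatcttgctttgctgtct
Cox8a and Atp5pf carry the ETS letters, Atp5pf also the YY1 letters, and Atp5mc2 the NRF1 letters, and these genes had log2 differences of 0.59, 0.56 and 0.58. Sdha has the NRF1 letters at 2 places and Uqcrc2 the ETS letters at 2 places, and their differences were -0.053 and -0.25. Over all 63 promoters, each motif was found both in genes past the fixed size and in the rest. The NRF1 letters were in 13 of the 36 past the fixed size and 8 of the remaining 27, the ETS letters in 11 and 7, and the YY1 letters in 9 and 6.

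Among complex I genes, 26 of the 28 supernumerary subunits past the minimum were higher in SHR, 17 of them past the fixed size. Of the 7 nuclear core subunits, among them those that hold the flavin and the iron-sulphur clusters, 5 were higher and 2 lower. None of these 7 reached the fixed size. Of 35 nuclear subunits past the minimum, 31 were higher, with a median log2 difference of 0.25 and 17 past the fixed size. The 7 core subunits had a median of 0.057 and their summed level was 11.6% higher. The 28 supernumerary subunits past the minimum had a median of 0.29, and the sum over all 30 was 32.3% higher.

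Ndufs1, the largest iron-sulphur subunit of complex I, had a mean of 0.502 per 10000 in Wistar neurons and 0.444 in SHR, a log2 difference of -0.057. Ndufs3 was level, at 1.53 and 1.53, and Ndufv1, the subunit that binds NADH, was at 1.76 and 1.87. Ndufs7, Ndufs8 and Ndufv2, which carry iron-sulphur clusters, were higher in SHR but within the fixed size. Ndufs7 was at 1.76 and 2.19 (0.21), Ndufs8 at 1.36 and 1.65 (0.17) and Ndufv2 at 2.14 and 2.72 (0.25).

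The highest differences of complex I were those of Ndufb2 and Ndufa2, small supernumerary subunits of the membrane arm and of the matrix arm. Ndufb2 had a mean of 3.35 per 10000 in Wistar neurons and 5.46 in SHR, 63.1% higher, and Ndufa2 of 1.6 and 2.61, 62.5% higher. Ndufc2, a membrane arm subunit with the highest Wistar mean of the nuclear complex I genes, was at 3.97 and 4.69 (0.20). Position in the complex separated the genes less than the kind of subunit. The 9 supernumerary subunits of the matrix arm had a median difference of 0.33 and the 18 of the membrane arm past the minimum one of 0.25. Besides Ndufs1, nuclear subunits lower in SHR included Ndufa9, which stabilises the junction of the arms, at 1.35 and 1.23, and the second of the 2 lines named Ndufa10l1, at 0.773 and 0.494 (-0.25). The first Ndufa10l1 line was at 0.0115 and 0.0234, under the minimum. The symbols Ndufa10l1, Ndufv3, Uqcrb and Cox6b1 have 2 lines each, and how the counting split their reads is not known.

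The Ndufaf genes encode assembly factors, which help to build complex I and are not part of it. Their levels were low, summing to 2.40 per 10000 in Wistar neurons and 3.1 in SHR over 8 genes. The sum was 29.2% higher in SHR and the median log2 difference was 0.044. The added 1 makes differences smaller at such low means. Ndufaf8 had the highest difference, at 0.371 and 0.760 (0.36), 105% higher. Ndufaf1 had the lowest, at 0.137 and 0.104 (-0.043), a change of -24.4%. By percent, Ndufaf6 was 58.1% and Ndufaf2 39.4% higher, whereas Ndufaf3 and Ndufaf7 were 1.95% and 1.45% higher.

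**Figure D2:**
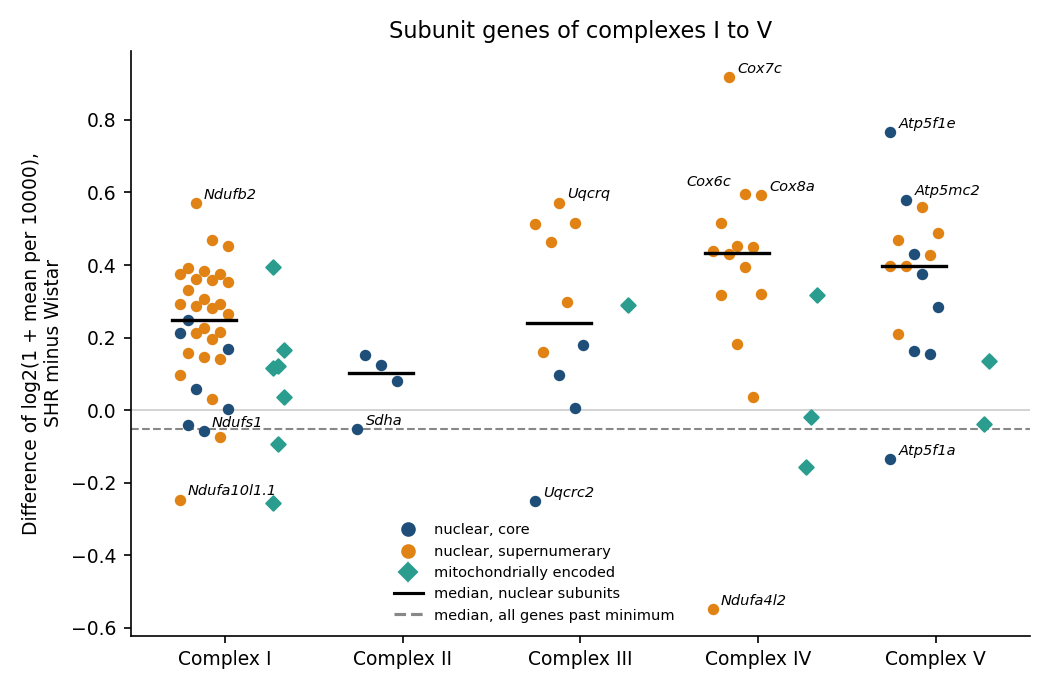
Difference of log2(1 + mean per 10000), SHR minus Wistar, for each subunit gene past the minimum, by complex. Circles are nuclear genes (blue core, orange supernumerary), diamonds mitochondrially encoded genes, solid bars the medians of the nuclear subunits and the dashed line the median of all genes past the minimum (-0.052). Cox7c (0.92) and Atp5f1e (0.77) are highest and Ndufa4l2 (-0.55) lowest.

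Complex II, succinate dehydrogenase, belongs to the citric acid cycle as well as to the respiratory chain. Its 4 genes had a median difference of 0.10, the smallest of the complexes over all their nuclear subunits. All 4 are classed as core genes, and the nuclear core genes alone had medians of 0.057 in complex I, 0.05 in III and 0.33 in V. Sdha, the flavoprotein that oxidises succinate, was at 0.841 per 10000 in Wistar neurons and 0.775 in SHR, and Sdhb, the iron-sulphur subunit, at 1.88 and 2.05. The membrane anchors Sdhc and Sdhd were at 1.19 and 1.43 and at 1.1 and 1.29. None of the 4 reached the fixed size in either direction, and their summed level was 10.6% higher.

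In complex III the split between large core and small supernumerary subunits was wider than the split between nuclear core and supernumerary subunits in complexes I and V. The 6 lines of small subunits were all higher in SHR, with a median difference of 0.49 and a sum 49.2% higher, whereas the 4 nuclear core genes had a median of 0.05 and a sum 2.73% higher. Uqcrq, a small subunit that contacts cytochrome b, went from 3.37 to 5.50 per 10000 (0.57) and Uqcr11 from 4.87 to 7.39 (0.52). Uqcrc2, a core protein of the matrix side, was 1.68 in Wistar and 1.25 in SHR, a change of -25.6% (-0.25). Its partner Uqcrc1 was level, at 1.86 and 1.87. The redox subunits lay between these, with Cyc1 (cytochrome c1) at 2.75 and 3.01 and Uqcrfs1 (the Rieske iron-sulphur protein) at 1.92 and 2.30. Cycs, cytochrome c itself, was listed at 0.00770 and 0.00531, although every respiring cell uses it, so its line cannot stand for its transcript level here.

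Complex IV, cytochrome c oxidase, had the highest median difference of the nuclear genes, 0.43. Its 12 lines of common supernumerary subunits were all higher in SHR, 11 of them past the fixed size, with differences from 0.18 to 0.92. Ndufa4 is counted here, since its product is a subunit of complex IV despite its name. Cox7c, a single-pass membrane subunit, had the highest difference of all members, with 7.12 per 10000 in Wistar neurons and 14.3 in SHR, 101% higher. Cox6c went from 7.31 to 11.6, Cox8a from 10.8 to 16.9 and Cox5b, which binds zinc, from 6.72 to 10.0, with differences of 0.59, 0.59 and 0.52. Cox4i1, the subunit through which ATP inhibits the enzyme, had the highest Wistar mean of the nuclear subunits and went from 11.8 to 16.3 (0.44). The smallest differences of the common subunits with an average of at least 1 were those of Ndufa4, at 10.9 and 13.8 (0.32), and Cox6a1, at 9.06 and 11.6 (0.32). Cox7a2l, a factor that joins complexes III and IV into supercomplexes, was at 2.96 and 3.80 (0.28), and the line Cox7a2l2 at 4.72 and 6.82.

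Several complex IV subunits have isoforms that replace the common one in other tissues, and these were listed at low values or at 0. The heart and skeletal muscle isoforms were at 0.0265 per 10000 in Wistar neurons and 0.00798 in SHR for Cox6a2, at 0 in both for Cox7a1, and at 0 and 0.000635 for Cox8b. An isoform listed at 0 is not read as absent, for the reason given below for Atp5pb. Of the testis isoforms, Cox7b2 and Cox8c were listed at 0 in both libraries and Cox6b2 at 0.000255 and 0. Cox4i2, the isoform of lung and other oxygen-sensing tissue, was at 0.112 and 0.141. Ndufa4l2, which can take the place of Ndufa4 and is known from pericytes and hypoxic cells, had a mean of 0.497 per 10000 in Wistar neurons and 0.0234 in SHR, a log2 difference of -0.55 and the lowest of all members. It was lower together with the glial, fibroblast and immune markers given above. Of the 6 smooth muscle and pericyte markers, Myh11 was at 0.0880 and 0.0523 and the other 5 were each under 0.0106 or at it, with Acta2 and Tagln higher in SHR, Cnn1 and Notch3 lower, and Rgs5 at 0.00452 and 0. The part of other cells in the Ndufa4l2 value was not tested.

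The nuclear subunit genes of the ATP synthase past the minimum were higher in SHR except for that of the alpha subunit. Of 15 nuclear subunits past the minimum, 14 were higher and 11 past the fixed size, with a median of 0.40. Here core and supernumerary genes were closer than in complexes I and III. The 8 nuclear core genes had a median of 0.33 and a sum 32.7% higher. The 7 supernumerary genes past the minimum had a median of 0.43, and the sum over all 8 was 43.3% higher. The catalytic F1 head showed the widest range. Atp5f1a (alpha) went from 3.18 to 2.81 per 10000 (-0.13), Atp5f1b (beta, the catalytic subunit) from 7.52 to 8.48 (0.15) and Atp5f1c (gamma, the rotating shaft) from 4.12 to 4.73 (0.16). The small subunits of the head were further apart between the strains, with Atp5f1d (delta) at 6.26 and 8.78 (0.43) and Atp5f1e (epsilon) at 4.22 and 7.89, 86.8% higher (0.77). Alpha and beta are present in equal number in the enzyme, and their transcripts differed in opposite directions.

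The mature c subunit, which forms the proton-carrying ring, is the same from each of 3 genes, which differ in the presequence that is cut off after import. All 3 were higher in SHR. Atp5mc1 went from 4.47 to 5.66 per 10000 (0.28), Atp5mc2 from 2.75 to 4.61 (0.58) and Atp5mc3 from 4.02 to 5.51 (0.38). The order of their means was the same in both libraries, with Atp5mc1 first and Atp5mc2 last, although the summed c ring level was 40.4% higher in SHR. In the peripheral stalk, which holds the head in place, Atp5pf went from 4.74 to 7.46 (0.56), Atp5pd from 5.08 to 7.0 and Atp5po from 3.36 to 4.04. The fourth stalk gene, Atp5pb, was listed at 0 in both libraries, as was Ndufa1 of complex I. Every respiring cell uses both, so these lines cannot stand for the levels of their transcripts. The 4 small membrane subunits Atp5md, Atp5me, Atp5mf and Atp5mg were higher by 0.40 to 0.49. Atp5if1, which encodes the inhibitor that stops the enzyme from running backwards, was also higher, at 9.60 and 13.1 (0.41).

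The mitochondrially encoded genes were among the most abundant transcripts of the neurons, with 8 of the 13 among the 10 highest means in each library. Their differences went both ways, 8 higher and 5 lower, with a median of 0.12. Of the cytochrome oxidase genes, Mt-co2 was higher in SHR, at 322 per 10000 in Wistar neurons and 401 in SHR (0.32). Mt-co3 was lower, at 319.6 and 286 (-0.16), and Mt-co1, which holds the site of oxygen reduction, was at 158 and 156 (-0.019). Mt-cyb, cytochrome b of complex III, was higher, at 229.8 and 281 (0.29). Mt-atp6, the channel subunit of the ATP synthase, was at 309.7 and 301 (-0.04), and Mt-atp8, whose reading frame overlaps that of Mt-atp6 so that reads there could be counted for either, at 0.869 and 1.05 (0.14).

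The 7 complex I genes of the mitochondrial genome fell into an abundant and a scarce set by 3′ count. Mt-nd1, which forms the quinone entry, was at 96.0 per 10000 in Wistar neurons and 108 in SHR (0.17), Mt-nd2 at 133 and 144 (0.12) and Mt-nd4 at 93.1 and 95.6 (0.037). All 3 of these were slightly higher in SHR and none passed the fixed size. Among the scarce set, Mt-nd3 was higher, at 7.73 and 10.5 (0.39), and Mt-nd4l, which overlaps Mt-nd4 with the same doubt about its reads, was at 4.88 and 5.37 (0.12). Mt-nd5 was at 7.85 and 7.29 (-0.095). Mt-nd6, the 1 protein gene of the opposite strand of mitochondrial DNA, was lower, at 2.93 and 2.29 (-0.26). The small differences of Mt-co1 and Mt-atp6 turned positive, to 0.022 and 0.0015, when the total was taken without Mt- and ribosomal protein genes.

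**Figure D3:**
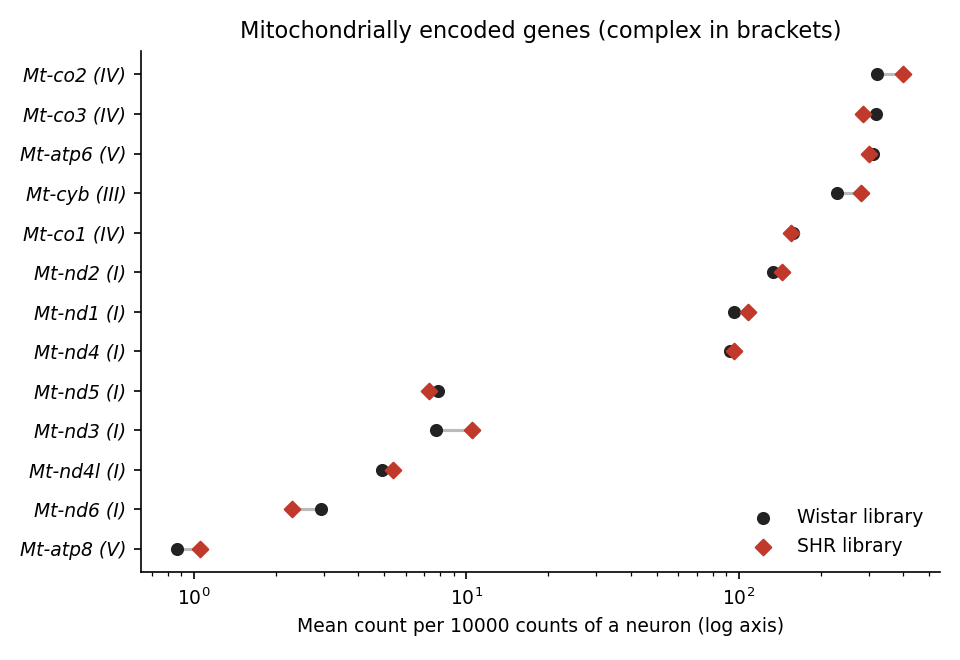
Mean count per 10000 counts of a neuron (log axis) of the 13 mitochondrially encoded genes in the Wistar library (black circles) and the SHR library (red diamonds), ordered by Wistar level, with the complex in brackets. Levels range from 0.869 for Mt-atp8 to 401 for Mt-co2, and 8 of the 13 pairs have the SHR point on the right.

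Set against the nuclear genes of the same complex, the mitochondrially encoded share was lower in SHR for every complex that has both. The ratio of 2 sums within a library does not depend on how the library was scaled. In complex I the mitochondrially encoded sum was 5.10 times the nuclear sum in Wistar and 4.28 times in SHR. In complex III this ratio was 8.43 and 7.63, in complex IV 9.44 and 6.83, and in complex V 4.87 and 3.45. The ratio thus changed by -16.1%, -9.42%, -27.6% and -29.1%. Over all subunits it was 6.78 in Wistar and 5.28 in SHR.

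In each of these complexes the nuclear sum differed more than the mitochondrially encoded sum. In complex IV the nuclear sum was 45.8% higher in SHR and the mitochondrially encoded sum 5.51% higher, and in complex V the nuclear sum was 37.2% higher while the mitochondrially encoded sum changed by -2.65%. In complex I they were 28.9% and 8.09% higher. Complex III, whose mitochondrially encoded side is Mt-cyb alone, was the exception by medians: Mt-cyb differed by 0.29 and the nuclear genes by a median of 0.24. That order turned with a minimum of 1 (nuclear median 0.30), with repeated symbols left out (0.32) and with a pseudocount of 0.1 (0.36).

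**Figure D4:**
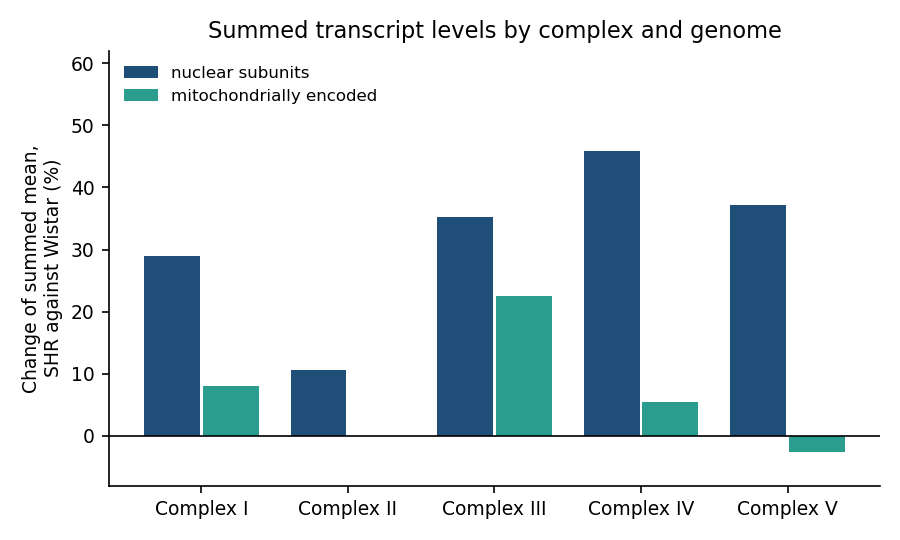
Percent change of the summed mean count per 10000, SHR against Wistar, for the nuclear subunits (blue) and the mitochondrially encoded genes (green) of each complex, from 1 library per strain. The nuclear bar is taller in complexes I, III, IV and V, from 28.9% in complex I to 45.8% in complex IV, and complex II has no mitochondrially encoded gene.

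The difference of a nuclear subunit moved with the length of its gene, as it did across the transcriptome. Gene spans in GRCr8 were used only to rank all genes past the minimum into 10 length classes of equal size, from 1 (shortest) to 10, since the values were made on Rnor_6.0, and 74 of the 78 subunits past the minimum had a span. Of these 74, 56 were in classes 1 to 3 and 6 in classes 6 to 10. In class 1, the 21 nuclear subunits had a median difference of 0.38, and the 651 genes outside the respiratory chain and the cytosolic ribosome had one of 0.069, 70.0% of them higher in SHR. The subunit medians were 0.36, 0.34, 0.20 and 0.16 in classes 2 to 5, against 0.00039 to -0.049 for the other genes. In class 6, the 4 subunits had a median of -0.063 and the other genes one of -0.061. Classes 7 and 9 held 1 subunit each, at -0.057 and 0.29, against -0.073 and -0.12. Across the 74 subunits, Spearman's rho of span and difference was -0.39, and -0.39 with no pseudocount. These points share their libraries, and rho of level and difference over 78 subunits was 0.68, or 0.41 with no pseudocount.

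Level and length were not matched gene by gene. Among genes of length classes 1 to 3 with an average of at least 1 per 10000, the 547 others had a median difference of 0.17 with 37.1% past the fixed size, and the 51 nuclear subunits a median of 0.38 with 36 past it. The kinds of subunit differed in length too. The 15 core genes of complexes I to III had a median length class of 4 and the 31 supernumerary genes of complexes I and III with a span one of 2. Within classes 1 to 3, 7 such core genes had a median difference of 0.10 and 24 supernumerary genes one of 0.34. The part of gene length in these differences was not tested beyond these values.

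**Figure D5:**
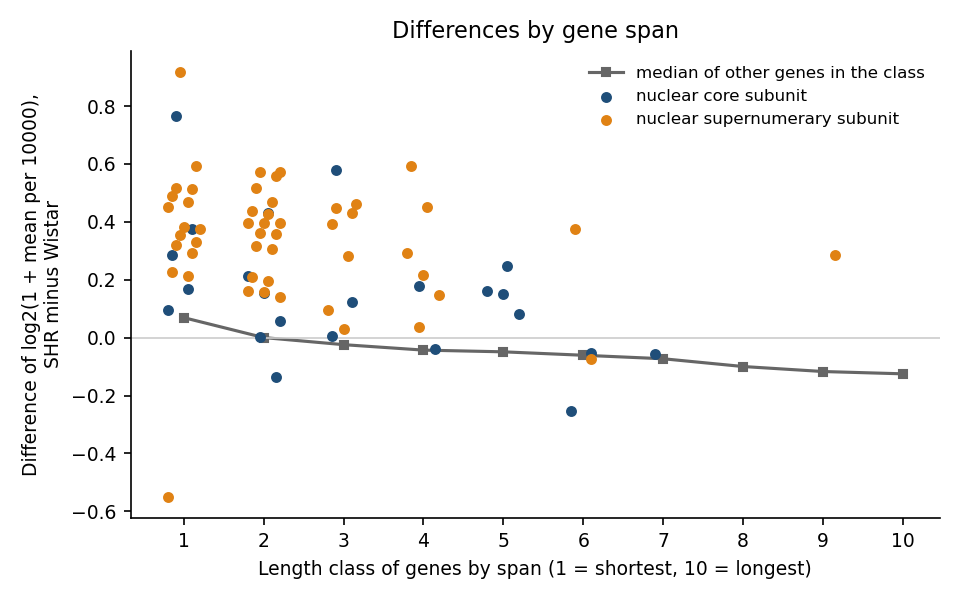
Difference of log2(1 + mean per 10000), SHR minus Wistar, of each nuclear subunit gene (blue core, orange supernumerary) by its length class, where 1 holds the shortest and 10 the longest genes past the minimum. The grey line is the median of the genes outside the respiratory chain and cytosolic ribosome in each class, falling from 0.069 to -0.12, and most subunits lie above it.

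Other mitochondrial and housekeeping genes did not all share this pattern. The cytosolic ribosomal protein genes, also short and abundant, had a median difference of 0.39, with 74 of 81 past the minimum higher in SHR. The mitochondrial ribosomal protein genes had a median of 0.10, with 54 of 70 higher. Summed levels were 44.8% higher for the cytosolic and 25.5% higher for the mitochondrial ribosomal protein genes, beside 37.1% for the nuclear subunits. The added 1 makes the medians of lists with lower means smaller. The proteasome subunit genes, with a median of -0.036 and 14 of 34 higher, and the citric acid cycle enzyme genes, with -0.018 and 5 of 14 higher, lay close to the median of all genes. The summed levels of these latter lists changed by 1.39% and -1.35%.

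The wider pathway was described by 3 lists. Assembly factors outside the members, with 25 of 33 lines past the minimum, had a median of 0.026, 15 higher and 10 lower. Of all genes past the minimum, 34.4% were higher and 65.6% lower, and by the fixed size 6.53% were higher and 11.8% lower. The summed level of these assembly factors was 20.7% higher, and the added 1 makes differences smaller at their low means. The copper chaperone Cox17 went from 1.52 to 2.49 per 10000 (0.47), Coa3, which guides the translation of Mt-co1, from 1.33 to 2.15 (0.44) and Uqcc2, a complex III factor, from 0.938 to 1.53 (0.39), and these 3 were the ones higher by the fixed size. Cox18, which inserts Mt-co2 into the membrane, was the 1 factor lower by that size, at 0.445 and 0.187 (-0.28). Genes of mitochondrial DNA and RNA upkeep were lower in 5 of 8 past the minimum, with a median of -0.058 and none past the fixed size, close to the 65.6% lower and the median of -0.052 of all genes. Tfam, which packages and transcribes mitochondrial DNA, was at 0.176 and 0.216 and Lrpprc, which stabilises mitochondrial messenger RNA, at 0.994 and 0.796 (-0.15). Of the regulators, 5 passed the minimum and 4 of these were lower, with a median of -0.058, beside the same 65.6% of all genes. The transcripts of the factors whose motifs were searched above were low, with Nrf1 at 0.102 and 0.0457, Gabpa at 0.143 and 0.103 and Yy1 at 0.253 and 0.291. Ppargc1a, a coactivator of mitochondrial biogenesis, was listed at 0.00224 in Wistar and 0 in SHR.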

How the data were processed

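Single-cell libraries of dissociated stellate ganglia were made with 10x Genomics 3′ chemistry, 1 from Wistar rats and 1 from SHRs. The submitters' processing notes name Cell Ranger 3.0.2, Seurat 3 and the genome build Rnor_6.0. The deposited values are, for each strain and gene, the mean count per 10000 over the cells the authors grouped as sympathetic neurons, plus 1, as a natural log, and taking the exponent minus 1 gave means that summed to 10000 in each library. Filters on cells, the treatment of doublets, the annotation release, the number of neurons and the depth per library are not given in the sources used here, so no interval for counting error could be computed. A further deposited table holds the authors' own comparison of the strains (fold changes, p-values and shares of cells) and was not used.

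Of 25399 lines, 4 with repeated names outside the respiratory chain were left out of the counts over all genes. Members were assigned to complex and kind of subunit by hand from textbook knowledge. Differences were computed as log2(1 + mean) in SHR minus Wistar for genes with an average of at least 0.1 per 10000, with Python 3.11.15, pandas 2.3.3 and NumPy 2.4.6, and the code was tested on simulated data. With 1 library per strain no test was run. Named genes were every mitochondrially encoded gene, core subunits, tissue isoforms, c subunit genes, the highest Wistar mean and the 2 highest and 2 lowest differences of each complex among subunits with an average of at least 1, the extremes of the Ndufaf genes, and up to 10 members past the size of 0.25 in each direction, and 1 gene that this rule names is not reported here. Other genes named with values, such as Cox7a2l, Atp5if1, Atp5pd, the neuron and muscle markers and the pathway genes outside the members, were chosen after their values were seen. Members and lists were chosen with earlier results of these data known, and the gene spans, promoter motifs and the citric acid cycle, import and carrier lists were added after values were seen. Spans and promoters came from RefSeq tables of GRCr8. Alternatives were other pseudocounts, totals, centring, minimums, sizes and lists.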

Additional observations from a re-analysis of the deposited data

How the results depend on the processing

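Since no replicate spread exists, a value was called moved where it differed by at least 0.05 on the log2 scale, or a count by over 1.5 times. The median difference of the nuclear subunits (0.29) was 0.39 with a pseudocount of 0.1, 0.077 with a pseudocount of 10 and 0.35 with the median of all genes set to 0. That of the mitochondrially encoded genes (0.12) was 0.034 with a pseudocount of 10 and 0.17 with that centring. The count of members higher by the fixed size (50) was 8 with a pseudocount of 10 and 11 with a size of 0.5, and the count of those lower (3) was 0 with a pseudocount of 10, 1 with the centring and 1 with a size of 0.5. The shares of all genes past the minimum changed as well. With a pseudocount of 10, 0.695% of all genes were higher and 0.328% lower by the fixed size, and 1.23% were higher by a size of 0.5. With the centring, 8.83% of all genes were higher and 7.95% lower by the fixed size. These counts and medians did not move by that measure with Mt- genes left out of the total, with Mt- and ribosomal protein genes left out, with no minimum or one of 1, or with a change of 25% of the mean in place of the log2 size, nor under 2 alternatives chosen after seeing the data, the leaving out of 3 lines that carry a clone name from the total and of repeated symbols. The number of nuclear subunits higher in SHR stayed between 68 and 71 under the scalings tried.

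The mitochondrially encoded minus the nuclear median was -0.13 in complex I, 0.052 in III, -0.45 in IV and -0.35 in V. By the log2 change of the ratio of summed means it was -0.25, -0.14 and -0.50 in complexes I, III and V, so that complex III changed sign, and without the highest gene of each side -0.25, -0.67 and -0.21 in complexes I, IV and V. Complex III has 1 mitochondrially encoded gene and could not be computed without it. In complex V the value without Mt-atp6 rests on Mt-atp8 alone, at 0.869 per 10000 in Wistar neurons and 1.05 in SHR. Reads of Mt-atp8 could be counted for either gene, so that value cannot show how far complex V depends on Mt-atp6. The nuclear median of complex III, 0.24, was 0.30 with a minimum of 1, 0.32 with repeated symbols left out and 0.36 with a pseudocount of 0.1, above Mt-cyb in each case. The centring shifts all members by the same amount, so that members near 0 change sign by construction. Other totals rescale each library, and with the added 1 the shifts differed between members. With Mt- and ribosomal protein genes left out, Mt-cyb went from 0.29 to 0.33, Cox4i2 from 0.037 to 0.051 and Ndufa4l2 from -0.55 to -0.65. In that setting 29 of the 113 members moved by the measure above. No paired analysis was possible because only 1 library per strain was analysed, and for the same reason no replicate could be left out. Without the number of neurons or their depth, counting error is unknown, and in relative terms it is largest for members of low mean.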

Other observations

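Genes that bring proteins and metabolites into mitochondria were also read out. Of the 24 Tomm and Timm genes, which encode the import machinery of the outer and inner membranes, 20 passed the minimum and 18 of these were higher in SHR, 6 by the fixed size, against 34.4% and 6.53% of all genes past the minimum, with a median difference of 0.13 and a summed level 35.0% higher. Timm8b, a small chaperone of the intermembrane space, was at 2.27 per 10000 in Wistar neurons and 3.83 in SHR (0.56), and Tomm7, a small subunit of the outer membrane channel, at 1.65 and 2.66 (0.47). Among 6 carrier and porin genes, Slc25a4, which exchanges ADP for ATP, was at 12.1 and 15.3 (0.31), and the outer membrane porin Vdac1 was at 3.21 and 3.19 (-0.009). Among the citric acid cycle enzymes, whose summed level was 17.8 and 17.6, Idh3a was at 0.876 and 1.25. The choice of these genes followed a look at their values.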
